A study of Mus musculus with 18 samples.

Results

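Sorting a culture undergoing cardiac reprogramming by GFP leaves a positive and a negative fraction, and the values below compare the pair at 2 weeks: GFP+ cells, called induced cardiomyocyte-like cells (iCMs), against GFP- cells, in which reprogramming failed according to the labels. The comparison used 6 of the 18 arrays of the study, 3 per fraction, chosen by the array titles, and covered 19912 genes. All cells came from CD1 mice. The other 12 arrays are iCMs and GFP- cells at 4 weeks, neonatal cardiomyocytes (CM) and neonatal cardiac fibroblasts (CF), with 3 arrays in each group. Which factors were introduced, what drives GFP and any age beyond neonatal are not stated in the labels. Per the design text the triplicates are biological, but separate cultures are not named for them, and the p-values therefore rest on the spread among the arrays alone, some of which may be technical.

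Direct reprogramming turns one differentiated cell type into another without a pluripotent stage, and in the heart the cardiac transcription factors Gata4, Mef2c and Tbx5 are widely used to push fibroblasts towards a muscle fate. A cardiomyocyte is recognised by its sarcomeres, by the sarcoplasmic reticulum that releases and takes up calcium, and by the intercalated discs that couple it to its neighbours. Fibroblast cultures from the heart also hold macrophages and some vascular and mesothelial cells, and such cells can remain in a fraction sorted only for the absence of a reporter.

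Values are log2 intensities made by the RMA method (background correction, normalization and summary per probe set), so a difference of 1 is a doubling. Medians per array lay between 7.32 and 7.44. A group mean under 6.16 counted as not above background (no array had a lower 25th percentile), and a fold against such a mean is a lower bound. Differences are iCMs minus GFP- cells with the standard error (SE) of limma, group means carry the standard deviation (SD) of 3 arrays, and calls were made below an adjusted p of 0.05 (limma, two-sided, Benjamini-Hochberg over 19912 genes). Arrays of the same fraction correlated across genes at r = 0.990 to 0.995, and arrays of different fractions at 0.935 to 0.947.

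At 2 weeks 3218 genes were called higher in iCMs (16.2% of all genes) and 3656 lower (18.4%). At least 2-fold differences were called for 809 higher genes (4.06%) and 989 lower genes (4.97%). The 2-fold rises led with Casq2, the calcium store of the sarcoplasmic reticulum, at 20.6-fold, and the largest fall was that of Ms4a6b, a membrane protein of leukocytes, at 9.37-fold. Over all genes the median difference was -0.02.

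**Figure D1:**
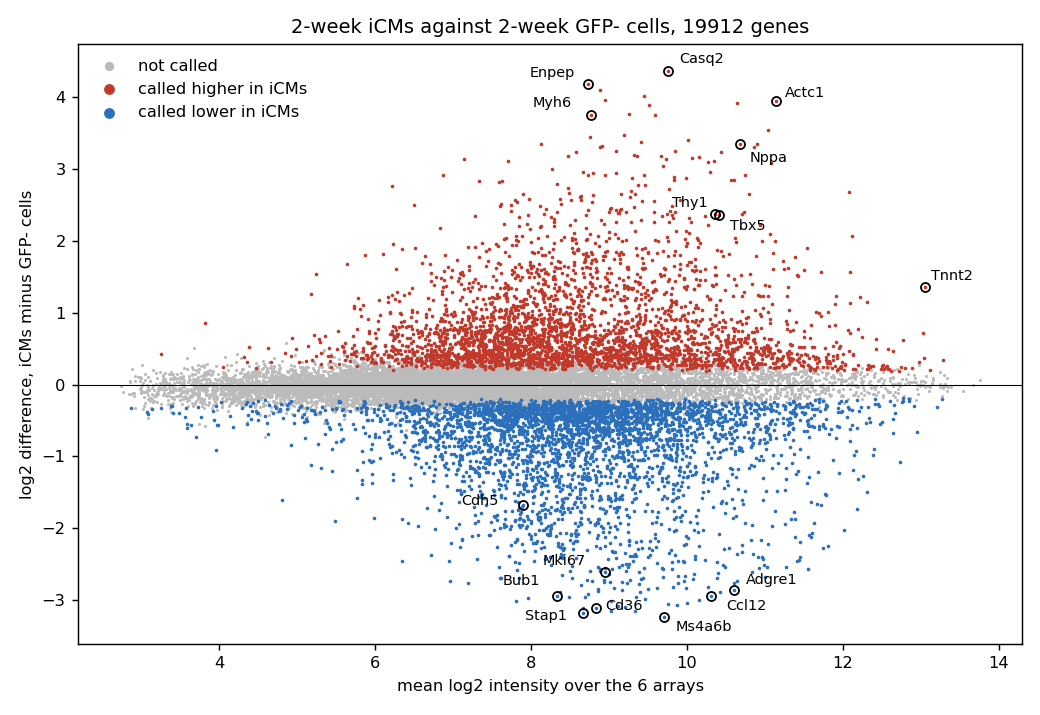
Log2 difference (iCMs minus GFP- cells at 2 weeks) against the mean log2 intensity of the 6 arrays for 19912 genes, with 3218 called higher in red, 3656 called lower in blue and the rest in grey. Circled genes are named in the text: muscle genes such as Casq2 and Actc1 reach about 4 above 0, and leukocyte and cell division genes such as Ms4a6b and Bub1 about 3 below.

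The promoters of the genes with the largest differences are shown first, because these are the sequences through which muscle and cell cycle genes are commonly regulated. Windows of 250 bases before the transcription start were read from RefSeq (GRCm38.p6) and searched on both strands. The MEF2 motif, an AT-rich element bound by the MEF2 family, was found in 6 of the 17 windows on hand for the 20 largest rises (35.3%), against 3.01% of 27025 promoters, and in 0 of 17 for the 20 largest falls. The CArG box, the element of serum response factor, was found in 3 of the 17 rises (17.6%), against 1.40% of all promoters, and in 0 of 17 falls. Among the sarcomere and Z-disc genes together, 9 of 44 windows held a CArG box (20.5%), 7 held a MEF2 motif (15.9%) and 11 held the element of zinc finger factors such as Gata4, AGATAA (25%, against 10.3% of all). The same element was in 1 of the 17 windows of the largest rises (5.88%). The T-box element AGGTGT was in 3 of those 17 (17.6%) and in 4 of the 44 sarcomere and Z-disc windows (9.09%), against 12% of all promoters. The windows shown are Casq2 at chr3:102086165-102086414 (plus strand), Myoz2 at chr3:123034988-123035237 (minus strand) and Ttn at chr2:76982548-76982797 (minus strand), with the MEF2 motif in capitals, and Actc1 at chr2:114052876-114053125 (minus strand) and Myl7 at chr11:5898783-5899032 (minus strand), with the CArG box in capitals. All read 5′ to 3′ along the gene's strand and end at the base before the start site. The motif ends 60 bases before the start in Casq2, 24 in Myoz2, 157 in Ttn, 38 in Actc1 and 52 in Myl7. A match describes the letters in this window and not a bound site.
Casq2: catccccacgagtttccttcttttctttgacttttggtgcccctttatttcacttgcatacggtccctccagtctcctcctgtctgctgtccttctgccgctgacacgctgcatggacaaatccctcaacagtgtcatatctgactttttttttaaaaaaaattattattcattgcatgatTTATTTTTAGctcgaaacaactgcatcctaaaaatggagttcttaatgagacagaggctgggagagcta
Myoz2: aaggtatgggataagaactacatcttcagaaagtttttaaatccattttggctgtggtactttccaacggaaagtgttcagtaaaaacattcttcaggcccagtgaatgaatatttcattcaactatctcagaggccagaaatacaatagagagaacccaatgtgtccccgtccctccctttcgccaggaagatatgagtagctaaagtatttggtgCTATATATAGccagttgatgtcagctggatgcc
Ttn: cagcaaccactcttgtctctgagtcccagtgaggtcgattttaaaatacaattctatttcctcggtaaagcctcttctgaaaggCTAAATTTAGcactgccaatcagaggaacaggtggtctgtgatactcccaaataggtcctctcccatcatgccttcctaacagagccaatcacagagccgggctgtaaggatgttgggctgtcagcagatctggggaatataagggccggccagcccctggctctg
Actc1: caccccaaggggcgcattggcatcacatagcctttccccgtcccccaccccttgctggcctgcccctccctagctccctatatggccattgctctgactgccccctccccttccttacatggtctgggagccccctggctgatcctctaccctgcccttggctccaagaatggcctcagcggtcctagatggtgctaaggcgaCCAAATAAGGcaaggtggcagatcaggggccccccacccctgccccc
Myl7: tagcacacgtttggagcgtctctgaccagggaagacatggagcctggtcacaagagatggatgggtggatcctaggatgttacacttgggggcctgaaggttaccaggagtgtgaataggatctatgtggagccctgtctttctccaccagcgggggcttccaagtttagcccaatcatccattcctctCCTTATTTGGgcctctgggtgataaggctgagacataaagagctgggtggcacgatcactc

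For the mitosis genes, which fell in iCMs, the windows of Ccnb2 and Cdk1, the cyclin and kinase that together drive entry into mitosis, are shown with CCAAT and TTTGAA in capitals. TTTGAA is the cell cycle homology element through which cell cycle genes are repressed outside division, and CCAAT boxes often lie beside it. CCAAT was found in 18 of the 24 windows on hand for the 29 mitosis genes (75%, against 34.5% of all promoters) and TTTGAA in 8 (33.3%, against 16.3%). In the 24 windows of the replication genes, which fell as well, CCAAT was in 62.5% and TTTGAA in 12.5%, and CCAAT was also in 52.9% of the 17 windows of the largest rises and 47.1% of the 17 of the largest falls. The Ccnb2 window (Ccnb2 at chr9:70421555-70421804 (minus strand)) holds CCAAT 3 times and TTTGAA once, and the Cdk1 window (Cdk1 at chr10:69352913-69353162 (minus strand)) holds CCAAT 3 times, written ATTGG on this strand, and TTTGAA 2 times.
Ccnb2: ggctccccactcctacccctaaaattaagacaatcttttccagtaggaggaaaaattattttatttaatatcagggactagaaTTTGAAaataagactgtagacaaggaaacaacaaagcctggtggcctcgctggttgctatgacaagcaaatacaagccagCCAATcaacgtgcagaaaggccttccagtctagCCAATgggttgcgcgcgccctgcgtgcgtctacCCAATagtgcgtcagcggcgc
Cdk1: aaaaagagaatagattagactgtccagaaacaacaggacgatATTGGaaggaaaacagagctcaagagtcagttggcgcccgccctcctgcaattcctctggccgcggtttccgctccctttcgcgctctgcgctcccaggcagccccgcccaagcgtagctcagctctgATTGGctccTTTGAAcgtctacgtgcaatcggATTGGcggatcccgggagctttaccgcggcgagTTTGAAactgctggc

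The 3 factors of the usual reprogramming mixture were higher in iCMs, and their probe sets cannot tell an introduced copy from the resident gene. Tbx5, which directs chamber formation, read 11.55, 11.58 and 11.63 in iCMs and 9.16, 9.42 and 9.10 in GFP- cells. Gata4, a zinc finger factor of the early heart, read 10.87, 10.77 and 10.99 against 9.01, 9.18 and 9.31. Mef2c read 11.62, 11.90 and 11.72 against 10.71, 11.28 and 10.94. The fractions did not overlap for any of them, and the differences were 2.36 ± 0.11, 1.71 ± 0.13 and 0.77 ± 0.13 (SE, limma adjusted p = 1.35e-12, 1.27e-09 and 6.19e-05). Tbx5 in GFP- cells also stood 2.55 ± 0.11 above fibroblasts, where its mean was 6.68 ± 0.08, and in iCMs 2.27 ± 0.11 above cardiomyocytes (the 3 comparisons share arrays).

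Other cardiac transcription regulators moved less, with 12 of 24 called higher (50%), 2 lower (8.33%) and a median of 0.39. Among all genes 16.2% were higher and 18.4% lower. The T-box repressor Tbx20 was 5.30-fold higher (10.90, 10.53 and 10.89 against 8.21, 8.49 and 8.40) and Tbx18, a gene of the sinus node and epicardium, 3.85-fold. Tbx3 (0.90 ± 0.14) and Prox1 (0.79 ± 0.10) were called higher too. So were Hey2, a Notch target of the compact ventricle, at least 1.31-fold, and Myocd, a coactivator of serum response factor, at least 1.34-fold, both with GFP- means not above background. Nkx2-5 read 8.26, 7.88 and 7.69 in iCMs and 7.99, 7.93 and 8.10 in GFP- cells. Those arrays overlapped, and Nkx2-5 was not called (-0.06 ± 0.11, adjusted p = 0.730), although weighting the arrays by quality called it lower (-0.24). Isl1, a factor of cardiac progenitors, gave -0.07 ± 0.15 (adjusted p = 0.787), and its means in the 6 groups ran from 6.11 to 6.48, close to the background limit. Array weights called Isl1 lower too (-0.32).

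Contractile, junctional and calcium release genes were mostly higher in iCMs. Of 84 measured genes in the 5 lists for thin filament, thick filament, Z-disc, intercalated disc and sarcoplasmic reticulum, 70 were called higher (83.3%, against 16.2% of all genes) and 3 lower, with a median difference of 1.49, and 56 were at least 2-fold higher. Without each array in turn the thin filament count ran from 10 to 12 of 14, the thick filament count from 11 to 12 of 16, the Z-disc count from 18 to 20 of 24 and the intercalated disc count from 15 to 16 of 16. The 12 of 14 higher genes of the sarcoplasmic reticulum kept that number in each case. In the 3 iCM arrays these genes were not equally high. Replicate 1 was the lowest of its group for 53 of the 56 genes (94.6%, against 36.5% of all genes). Replicate 2 was the highest for 46 (82.1%, against 30.5%). The order was not particular to muscle genes: of 30 macrophage markers, replicate 1 was the lowest for 24 and replicate 2 the highest for 25. Of 29 mitosis genes the numbers were 11 and 4. Among GFP- arrays, replicate 2 was the highest for 42 of the 56 muscle genes (75%, against 38.9% of all genes).

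Among thin filament genes, Actc1, the cardiac alpha-actin, read 12.97, 13.26 and 13.12 in iCMs and 8.33, 10.04 and 9.14 in GFP- cells, a 15.5-fold difference (3.95 ± 0.26, adjusted p = 2.98e-10). The GFP- arrays spread widely, and the highest of them still lay below the lowest iCM array. The actin nucleator Lmod2 was 9.99-fold higher, the inhibitory troponin Tnni3 8.68-fold and the calcium-binding troponin Tnnc1 8.52-fold. Tnnt2, the cardiac troponin T, differed least of these at 2.56-fold. Its GFP- mean was already 12.37 ± 0.12, 1.49 ± 0.16 above fibroblasts, and its iCM mean of 13.73 ± 0.04 lay close to the highest value of any array (13.95).

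Among thick filament genes, titin (Ttn), the spring that spans the sarcomere from Z-disc to M-band, was 16.2-fold higher (11.14, 11.76 and 11.48 against 7.19, 7.86 and 7.26). Myl7, the atrial regulatory light chain, was 15.2-fold higher (12.46, 12.75 and 12.61 against 8.22, 9.24 and 8.59). Myh6, the fast alpha-myosin heavy chain, was 13.5-fold higher, with the widest spread among iCM arrays of these 3 (9.93, 11.29 and 10.73 against 6.74, 7.09 and 6.86). The M-band proteins Myom2 and Myom1 rose by 3.19 ± 0.22 and 2.49 ± 0.22, and the atrial light chain Myl4 by 2.68 ± 0.25. Myl2, the ventricular regulatory light chain, read 6.79, 6.89 and 6.79 in iCMs and 7.21, 7.46 and 7.29 in GFP- cells, and was called lower (-0.49 ± 0.08, adjusted p = 5.18e-05), beside 13.70 ± 0.02 in cardiomyocytes. Myh7, the slow beta-myosin heavy chain, was called higher by only 0.34 ± 0.08 (7.12 ± 0.06 against 6.78 ± 0.01, SD), beside 11.86 in cardiomyocytes.

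Of 16 atrial-enriched genes 10 were called higher (62.5%, against 16.2% of all genes) and 0 lower, with a median of 0.95. Of 9 ventricular-enriched genes 4 were higher (44.4%) and 1 lower (11.1%, against 18.4%), with a median of 0.09. The 4 include Pln and Hey2. Nppa, the atrial natriuretic peptide, read 12.66, 11.90 and 12.52 against 9.25, 8.66 and 9.12, a 10.2-fold difference. Nppb, the B-type peptide, named after its values were seen, was higher by 2.92 on the log2 scale. Sln, the atrial inhibitor of the calcium pump, was 4.92-fold higher and Mybphl, an atrial relative of myosin-binding protein, 2.29-fold. Both lists hold genes chosen by hand from textbook knowledge, with earlier results of these data known. The difference between them was not tested. The atrial list includes Tbx5, of the usual reprogramming mixture. It also includes Myl7, Myl4, Mybphl and Sln, which the contractile and calcium release lists count as well. The ventricular list shares Myl2, Myl3, Myh7 and Pln with those lists.

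At the Z-disc and costamere 19 of 24 genes were called higher (79.2%, against 16.2% of all genes) and 0 lower. Myoz2, which anchors calcineurin to alpha-actinin, read 10.90, 10.96 and 10.95 in iCMs and 7.05, 6.61 and 6.84 in GFP- cells, 17.2-fold higher, with an SD of only 0.03 among the iCM arrays. Smpx, a small muscle protein, was 15.6-fold higher, the stretch sensor Csrp3 11.7-fold and dystrophin (Dmd) 10.9-fold. The LIM protein Pdlim3 was 8.93-fold and the actin-binding Nexn 7.20-fold higher. Desmin (Des), the intermediate filament of muscle, was 6.11-fold higher with wide spread in both fractions (9.05, 10.73 and 10.01 against 6.69, 8.12 and 7.16), and its lowest iCM array still lay above its highest GFP- array.

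At the intercalated disc 15 of 16 genes were higher (93.8%, against 16.2% of all genes). Popdc3, a cyclic AMP-binding membrane protein, was 13.6-fold higher and Popdc2 of the same family 5.13-fold. The desmosomal proteins Dsp (12.37, 12.74 and 12.59 against 9.13, 9.39 and 9.15, 10.2-fold), Pkp2 (5.23-fold) and Jup (4.91-fold) rose together. Tjp1, the tight junction scaffold that also lies at the disc, was 5.92-fold higher. The list of calcium release genes gave 12 of 14 higher. Casq2 read 11.44, 12.35 and 12.02 in iCMs and 6.73, 8.49 and 7.50 in GFP- cells (4.36 ± 0.28, adjusted p = 1.49e-10). The release channel Ryr2 read 11.38, 11.50 and 11.51 against 7.88, 7.73 and 7.52, 13.4-fold higher. The membrane tether Jph1 was 11.2-fold higher. Triadin (Trdn) was 4.79-fold higher by the brightest of its probe sets. Of its 18 other probe sets 12 were called higher, and the 6 that were not ranged from -0.0903 to 0.843. Phospholamban (Pln), the brake on the calcium pump, read 7.70, 9.27 and 8.38 against 6.71, 6.79 and 6.79. Its mean in iCMs was 4.94 ± 0.25 below that of cardiomyocytes. The 2 genes called lower, named after their values were seen, were Atp2a3 (-1.24), a calcium pump of non-muscle cells, and Asph (-0.44).

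**Figure D2:**
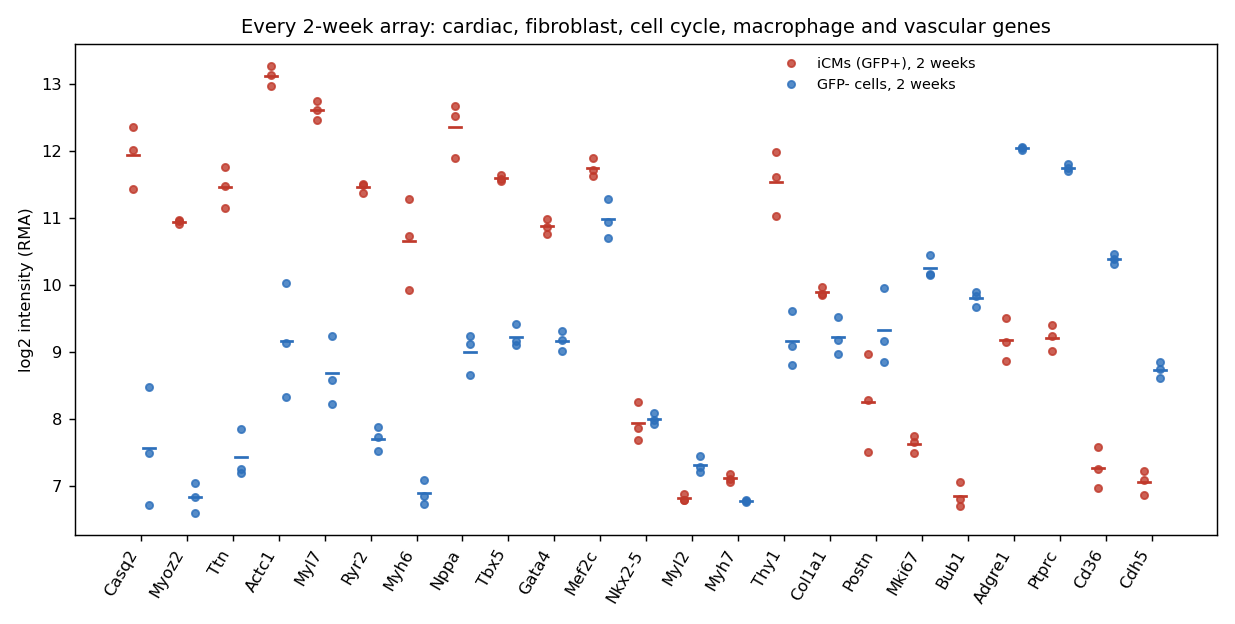
Log2 intensity of 23 genes in each of the 3 iCM arrays (red) and 3 GFP- arrays (blue) at 2 weeks, with a bar at the mean of each fraction. Red lies above blue without overlap from Casq2 to Mef2c, the fractions overlap in Nkx2-5 and Postn, and blue lies above red from Mki67 to Cdh5.

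Of 24 ion channels and exchangers 8 were called higher (33.3%) and 2 lower (8.33%), with a median of 0.11. Among all genes 16.2% were higher and 18.4% lower. The calcium channel subunits Cacna2d1 (4.07-fold) and Cacna1c (2.42-fold), the atrial potassium channel subunit Kcnj5 (3.45-fold) and the sodium-calcium exchanger Slc8a1 (2.15-fold) were higher. Kcnj2, the inward rectifier that sets the resting potential of ventricular muscle, read 5.87, 6.35 and 5.92 in iCMs and 8.23, 8.39 and 7.96 in GFP- cells, at least 4.10-fold lower with an iCM mean not above background. In fibroblasts its mean was 8.32 and in cardiomyocytes 8.56. Cacna1d, an L-type channel of pacemaker cells, was 2.72-fold lower.

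Metabolic genes moved by group. Of 21 genes of glycolysis, glycogen and creatine kinase 10 were called higher and 4 lower. The muscle enzymes Pgam2 and Eno3 were 10.6-fold and 8.61-fold higher, Ppp1r3c, which directs a phosphatase to glycogen, 14.8-fold, the heart lactate dehydrogenase subunit Ldhb 3.93-fold and myoglobin (Mb) 2.30-fold, while the AMP deaminase Ampd3 was 4.20-fold lower. Of 27 genes of fatty acid uptake and oxidation 13 were higher (48.1%) and 3 lower (11.1%). Pdk4, which restrains pyruvate oxidation, was 6.21-fold and the thiolase Acaa2 4.66-fold higher. The mitochondrial coactivator Ppargc1a rose by 1.53 ± 0.21 to a mean of 7.89 ± 0.44, beside 12.33 in cardiomyocytes. Of 47 respiratory chain genes 14 were higher (29.8%) and 1 lower (2.13%) with a median of 0.15, all under 2-fold. The number higher fell to 7 without replicate 2 of the iCMs and to 9 without their replicate 3. It was 8 without replicate 1 of the GFP- cells and 4 when only the 6 arrays were fitted. At 4 weeks 41 of the 47 were higher (17.2% of all genes were) and 0 lower, with a median of 0.38. Against cardiomyocytes, 46 of the 47 were lower in 2-week iCMs (19.4% of all genes were).

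Cd36, the fatty acid transporter of heart muscle, capillaries and macrophages, went the other way from the muscle genes. It read 6.97, 7.59 and 7.27 in iCMs and 10.46, 10.39 and 10.31 in GFP- cells, 8.65-fold lower. The iCM mean was 0.04 ± 0.16 from that of fibroblasts, the GFP- mean was 3.15 ± 0.16 above it, and cardiomyocytes stood at 12.21 ± 0.08. The lipid-binding Fabp4, a gene of fat cells, capillaries and macrophages, was 4.85-fold lower in iCMs and Lpl, lipoprotein lipase, 1.37-fold, a call lost without replicate 2 of the iCMs (adjusted p = 0.0801), without replicate 1 of the GFP- cells (0.0571) and with only the 6 arrays (0.0641). Macrophage and some endothelial markers were lower in iCMs as well, as given further on, and their part in the falls of Cd36 and Fabp4 was not tested.

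Genes of mesenchymal cells did not fall as a group. Of 21 collagens 6 were called higher (28.6%) and 0 lower, with a median of -0.07. Of 30 other matrix genes 11 were higher (36.7%) and 5 lower (16.7%). Of 25 genes of fibroblast identity 9 were higher (36%) and 5 lower (20%). Among all genes 16.2% were higher and 18.4% lower. The shares of matrix and fibroblast identity genes called lower are thus like that of all genes. Col1a1 read 9.87, 9.97 and 9.85 in iCMs and 8.97, 9.52 and 9.19 in GFP- cells, higher by 0.67 ± 0.12, while Col3a1 differed by -0.05 ± 0.10 (adjusted p = 0.795). The fibrillar-associated Col12a1 was 5.21-fold and the matrix protein Efemp1 8.25-fold higher. Thy1, a surface antigen of fibroblasts, read 11.04, 11.98 and 11.61 against 8.81, 9.61 and 9.09, 5.17-fold higher, and the collagen receptor Ddr2 was 2.63-fold higher. Postn, periostin, overlapped between the fractions (7.51, 8.97 and 8.29 against 8.86, 9.96 and 9.16), and its fall (-1.07 ± 0.30, adjusted p = 0.00743) was not called without replicate 1 of the iCMs (-0.70, adjusted p = 0.0651) or replicate 2 of the GFP- cells (-0.75, 0.0599). Lumican (Lum), a collagen-binding proteoglycan, was at least 1.62-fold lower, and dermatopontin (Dpt) 1.97-fold.

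Measured against fibroblasts, matrix genes were often lower in both fractions, and the difference between these counts was not tested: 12 of 21 collagens and 23 of 30 other matrix genes were lower in GFP- cells than in fibroblasts, with 0 higher in either list, against 9 and 21 lower in iCMs, with 1 and 4 higher. Of all genes, 22.7% were called between GFP- cells and fibroblasts (8.93% lower) and 33.3% between iCMs and fibroblasts (15.8% lower), and the comparisons share their arrays. Matrix-degrading enzymes were mostly lower in iCMs than in GFP- cells (12 of 23 lower, where 18.4% of all genes were, and 5 higher), led by urokinase (Plau, 5.01-fold), the neutrophil collagenase Mmp8 (at least 4.19-fold) and the macrophage elastase Mmp12 (4.28-fold), while the inhibitor Timp3 (2.17-fold) and Mmp23 (2.83-fold) were higher. Of 30 macrophage and leukocyte markers 29 were lower in the same direction, with summed linear levels of 28209 to 34842 in iCM arrays and 114880 to 118962 in GFP- arrays, and their part in the falls of these enzymes was not tested.

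Contractile genes of smooth muscle and activated fibroblasts rose with the cardiac ones. Of 19 genes 13 were higher (68.4%, against 16.2% of all genes) and 0 lower, with a median of 0.59. The list shares Des with the Z-disc list, and Abcc9 and Kcnj8 with the ion channel list. Myl9, the smooth muscle regulatory light chain, was 6.31-fold higher, Tagln 3.46-fold, Acta2 3.44-fold and caldesmon (Cald1) 2.95-fold. The GFP- arrays spread widely for these genes (9.80, 11.19 and 10.49 for Acta2), and the iCM arrays did not overlap them (12.15, 12.39 and 12.28). Acta2 stood at 12.21 in fibroblasts, close to its iCM mean of 12.27 ± 0.12. The summed linear level of the 19 smooth muscle and pericyte markers ran from 20535 to 25324 in iCM arrays and from 6161 to 10285 in GFP- arrays, in the same direction as the cardiac contractile genes, and its part in that result was not tested. Of 20 mesothelial and epicardial markers 9 were higher (45%, against 16.2% of all genes) and 2 lower (10%, against 18.4%). Without each array in turn the number higher ran from 8 to 13. Mesothelin (Msln) was 4.39-fold higher, the uroplakins Upk1b and Upk3b 4.00-fold and 3.58-fold, and the zinc finger gene Wt1 2.04-fold. The summed linear level of the 20 mesothelial markers ran from 12328 to 17679 in iCM arrays and from 5966 to 8816 in GFP- arrays. The part of mesothelial cells in any other result was not tested.

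Members of the TGF-beta and BMP pathways, which instruct matrix production and heart development, were higher in iCMs more often than lower. Of 33 genes 15 were higher (16.2% of all genes were) and 6 lower, a share (18.2%) like that of all genes (18.4%), with a median of 0.29. Among ligands, Tgfb3 (10.05, 11.11 and 10.53 against 6.95, 8.48 and 7.42) was 7.72-fold, Tgfb2 6.85-fold and Bmp2 3.19-fold higher, whereas Tgfb1, named after its values were seen, fell by 1.54 on the log2 scale. Tgfb3 in iCMs also lay 3.19 ± 0.28 above cardiomyocytes and 2.08 ± 0.28 above fibroblasts. The BMP receptor Bmpr1a rose 3.74-fold and the latent TGF-beta binding protein Ltbp1 3.26-fold, and the BMP target Id2, an inhibitor of differentiation, was 4.07-fold lower.

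The largest falls were in genes of macrophages and other myeloid cells. Of 30 macrophage and leukocyte markers 29 were lower in iCMs (18.4% of all genes were), 0 higher, with a median of -2.25 against -0.02 over all genes. Adgre1, the F4/80 antigen of macrophages, read 8.87, 9.51 and 9.15 in iCMs and 12.04, 12.06 and 12.01 in GFP- cells, 7.26-fold lower. The complement subunit C1qa was 6.79-fold lower, the integrin Itgam 6.52-fold, the mannose receptor Mrc1 6.40-fold, the myeloid master regulator Spi1 5.91-fold and the pan-leukocyte phosphatase Ptprc 5.79-fold. The marker that was not called, named after its values were seen, was Lyz1 (-0.39). The called falls ran from -0.33 to -2.86. None of the 30 was below background in iCMs, where the summed linear level of the list ran from 28209 to 34842, against 114880 to 118962 in GFP- cells, 91373 to 106017 in fibroblasts and 3367 to 3645 in cardiomyocytes. In bulk RNA, fewer cells of a type and less RNA per cell cannot be told apart.

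Among the 20 largest falls, Ms4a6b read 7.69, 8.28 and 8.32 in iCMs and 11.41, 11.29 and 11.26 in GFP- cells. The endosomal RNA sensors Tlr7 (8.85-fold), Tlr8 (8.67-fold) and Tlr13 (8.01-fold) and the lipoprotein sensor Tlr1 (7.79-fold) were lower, as were the inflammasome protease Casp1 (8.44-fold), the lectins Clec4e (8.33-fold) and Clec5a (8.08-fold), the proton pump subunit Atp6v0d2 (8.57-fold) and the signalling adaptor Stap1 (9.01-fold). Of 29 chemokines and receptors 17 were lower (58.6%, against 18.4% of all genes) and 1 higher (3.45%, against 16.2%). Ccl12 fell 7.69-fold, Ccl3 5.38-fold, Ccl6 5.25-fold and the receptor Ccr1 at least 2.67-fold. Of 24 inflammatory genes 12 were lower (50%), among them Tnf (4.76-fold) and the interleukin-1 antagonist Il1rn (3.67-fold). The 4 higher ones (16.7%, a share like that of all genes) were led by the cytokine Lif (2.92-fold) and the alarmin Il33 (2.80-fold). Of 22 interferon response genes 11 were lower (50%) and 1 higher (4.55%), with Oas1a at 2.99-fold lower and Xaf1 at 1.59-fold higher. The macrophage markers move with each of these lists, and their part in them was not tested. Markers of lymphocytes gave 1 of 9 lower (11.1%) and 0 higher. MHC class II genes gave 1 of 8 lower (12.5%), Cd74 at least 1.53-fold, and 0 higher. Both shares lie under the 18.4% of all genes. The lymphocyte count was 2 without replicate 1 of the iCMs and 3 without replicate 2 of the GFP- cells, and the MHC class II count was 2 without replicate 1 of the GFP- cells.

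Of 21 endothelial markers 9 were lower (18.4% of all genes were) and 2 higher (16.2%). The sialomucin Emcn was 5.57-fold lower (6.49, 6.58 and 6.76 against 9.06, 9.25 and 8.96), VE-cadherin (Cdh5) 3.18-fold and Pecam1 2.09-fold, whereas Flt1, a receptor for vascular growth factors, was 4.79-fold higher (9.71, 10.68 and 10.28 against 7.78, 8.17 and 7.92). The other gene called higher was Eng (0.39), named after its values were seen, and its call was lost without any one of the 6 arrays. Cdh5 and Emcn in GFP- cells also stood 1.97 ± 0.12 and 3.10 ± 0.16 above fibroblasts, where their means were 6.77 and 5.99. The summed linear level of the 21 markers ran from 4024 to 4528 in iCM arrays and from 4484 to 4750 in GFP- arrays, which overlap.

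Genes of cell division fell almost without exception. Of 29 mitosis genes 28 were lower (96.6%, against 18.4% of all genes), with a median of -1.88. Of 29 DNA replication genes 28 were lower (96.6%) and 0 higher, with a median of -1.03. Mki67, the antigen of cycling cells, read 7.66, 7.50 and 7.75 in iCMs and 10.44, 10.16 and 10.15 in GFP- cells, 6.12-fold lower. The spindle checkpoint kinase Bub1 read 6.81, 6.71 and 7.07 against 9.90, 9.84 and 9.68, 7.68-fold lower. The kinetochore proteins Nuf2 and Ndc80 were 5.71-fold and 4.67-fold lower, Top2a, which untangles chromosomes, 5.58-fold, and the spindle motor Kif11 4.84-fold. Ccnb2 and Cdk1, whose promoters are shown above, fell by 1.82 and 1.79 on the log2 scale. For replication, the helicase subunits Mcm6 and Mcm3 were 3.38-fold and 2.96-fold lower, the ribonucleotide reductase subunit Rrm2 3.84-fold, the initiation factor Gins1 3.87-fold and the primase Prim1 3.67-fold. The exception among mitosis genes was the centromeric histone Cenpa, named after its value was seen, at 0.46 higher, and that call was lost without replicate 2 or 3 of the iCMs or replicate 2 of the GFP- cells.

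GFP- cells were not simply at the fibroblast level: 26 of the 29 mitosis genes and 19 of the 29 replication genes were called higher in them than in fibroblasts (13.8% of all genes were), with medians of 0.77 and 0.51. In iCMs 28 of 29 mitosis genes were below cardiomyocytes (19.4% of all genes were) and 27 below fibroblasts (15.8%). The summed linear level of the mitosis genes ran from 6011 to 6350 in iCM arrays, from 20170 to 23395 in GFP- arrays, from 11446 to 14978 in fibroblasts and from 15097 to 20897 in cardiomyocytes. Macrophage markers also stood in part above fibroblasts in GFP- cells, with 12 of 30 called higher and 0 lower, in the same direction as the division genes, and their part in that result was not tested. Cell cycle inhibitors and p53 targets did not move together. Of 18 genes 7 were higher and 7 lower (38.9% each, against 16.2% and 18.4% of all genes). Perp, a desmosomal p53 target, was 4.03-fold higher, Cdkn2b 1.73-fold and Ccng1 1.55-fold higher, and Cdkn2c was 2.61-fold lower. The number higher was 4 without replicate 1 or replicate 3 of the GFP- cells.

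**Figure D3:**
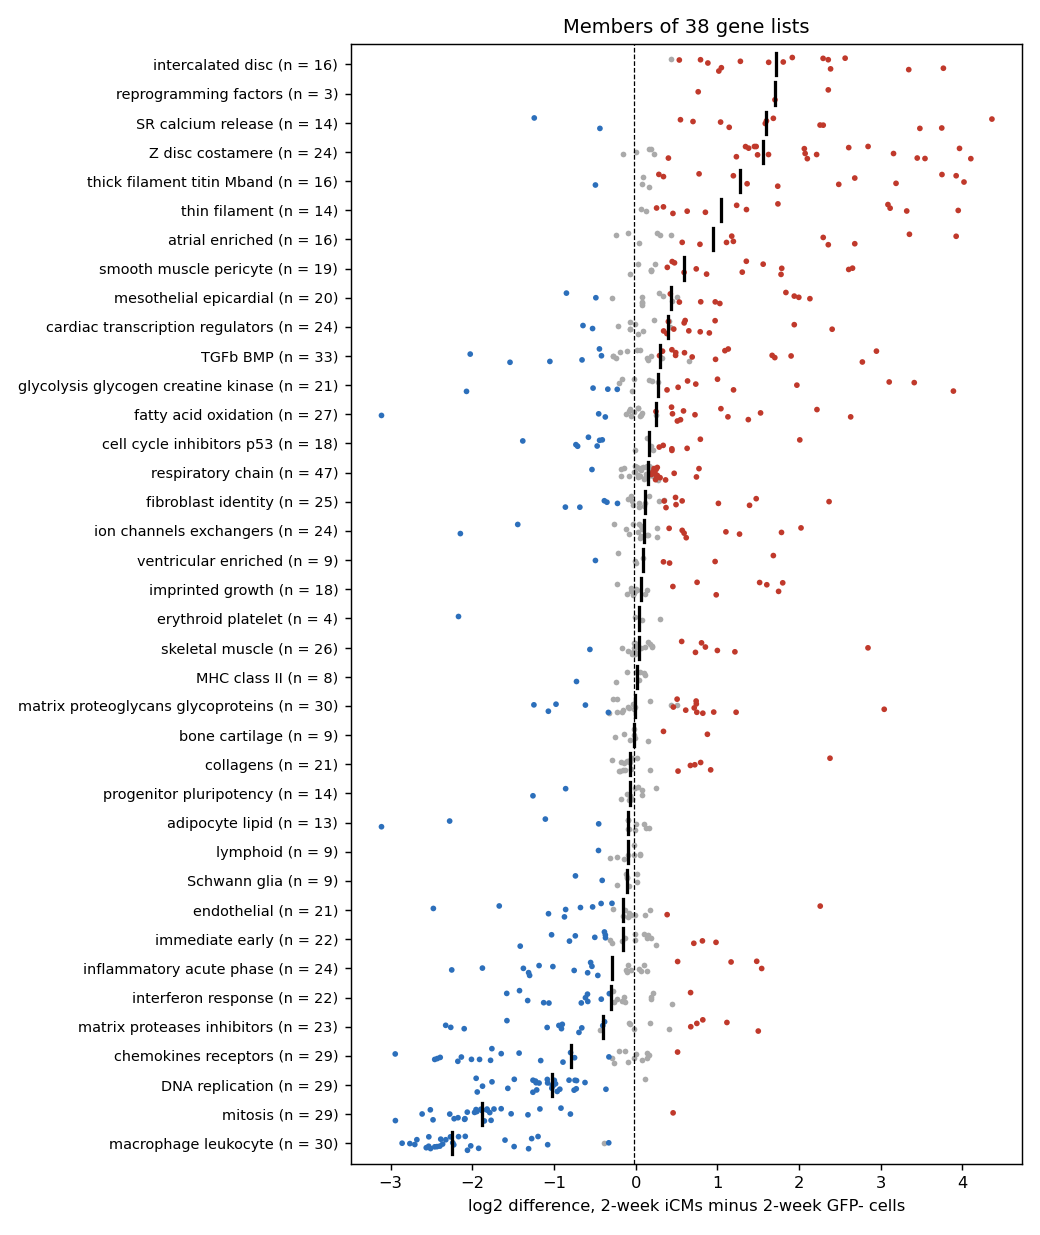
Log2 difference at 2 weeks for the measured members of 38 gene lists, ordered by the list median (black bar), with called rises in red, called falls in blue, uncalled genes in grey and the median of all genes (-0.02) as a dashed line. The lists of the sarcomere, Z-disc, intercalated disc and sarcoplasmic reticulum lie to the right, up to a median of 1.72, skeletal and ventricular lists lie near the dashed line (0.04 and 0.09), and macrophage, mitosis and replication genes lie to the left, with medians of -2.25, -1.88 and -1.03.

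Of the remaining lists, immediate early genes gave 3 of 22 higher (13.6%, against 16.2% of all genes) and 8 lower (36.4%, against 18.4%). Egr2 was 2.66-fold and Jun 2.04-fold lower, and Btg2, which slows proliferation, was 1.98-fold higher. Of 18 imprinted growth genes 7 were higher (38.9%) and 0 lower, led by Ndn (3.49-fold), the growth factor adaptor Grb10 (3.37-fold) and Peg10 (2.87-fold). Skeletal muscle genes gave 7 of 26 higher (26.9%) and 1 lower (3.85%) with a median of 0.04. That list shares Acta1 and Tnnt1 with the thin filament list and Ckm with the creatine kinase list. The fast troponin Tnnt3 stood out at 7.19-fold higher (11.10, 11.52 and 11.16 against 8.25, 8.40 and 8.59), while it stood at 8.98 in cardiomyocytes. Of 13 adipocyte and lipid genes 4 were lower (30.8%, against 18.4% of all genes) and 0 higher, with a median of -0.09. The lower ones include Cd36, Fabp4 and Lpl, given above, and Cd36 and Fabp4 are also genes of capillaries and macrophages. The summed linear level of the list did not overlap, at 3240 to 4198 in iCM arrays and 6623 to 7496 in GFP- arrays. The part of fat cells in any result was not tested. Markers of Schwann cells gave 2 of 9 lower (22.2%) and those of erythroid cells and platelets 1 of 4 (25%). Progenitor and pluripotent markers gave 2 of 14 lower (14.3%), and these lists held 0 called higher. Bone and cartilage markers gave 2 of 9 higher (22.2%) and 0 lower. These shares are near those of all genes, 18.4% lower and 16.2% higher, and are not read as results about these cells. Leaving out single replicates gave 2 or 3 lower for Schwann cells, 0 or 1 higher for erythroid cells and 1 or 2 higher for bone.

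The same comparison was available 2 weeks later in other arrays, although both times share the error estimate of the fit over all 18 arrays. At 4 weeks 6816 genes were called (34.2%, beside 34.5% at 2 weeks). Of the genes at least 2-fold higher at 2 weeks, 546 were also at least 2-fold higher at 4 weeks, which is 67.5% of the 2-week list and 79.8% of the 4-week list (3.44% of all genes were at least 2-fold higher at 4 weeks and 5.12% lower). Of the genes at least 2-fold lower, 768 were shared (77.7% and 75.4%), and 0 genes were at least 2-fold changed in opposite directions. Across all genes, which are not independent, the differences of both times correlated at r = 0.890.

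The interaction, the 2-week difference minus the 4-week difference, was called for 785 genes (3.94%), 415 higher and 370 lower. Among the 84 muscle genes the interaction was lower for 16 (1.86% of all genes) and higher for 2 (2.08%). Pln rose by 1.69 at 2 weeks and 3.45 at 4 weeks (interaction -1.77 ± 0.35, adjusted p = 0.00532). Nebl, a Z-disc nebulin relative, rose by 0.46 and 2.67, but its other probe set gave 0.118 at 2 weeks (adjusted p = 0.620), which was not called. Ppp1r3a, a glycogen phosphatase subunit, rose by 1.00 and 3.25 as measured, and the fast light chain Myl1 by 1.00 and 2.23. With GFP- means not above background at 2 weeks, their 2-week rises were at least 1.46-fold and at least 1.58-fold. Mlf1 rose by 2.23 and 3.97. Bex1, which is abundant in cardiomyocytes (11.11) and not above background in fibroblasts (4.06), read 9.85, 9.58 and 9.96 in iCMs and 7.66, 7.77 and 7.40 in GFP- cells at 2 weeks, a difference of 2.19 ± 0.19. At 4 weeks its fractions stood at 8.90 and 8.87. The lipocalin Lcn2, the macrophage receptor Vsig4, the lectin Cd209f and the cytokine Il6 were not called at 2 weeks (-0.15 to 0.14) and differed by -2.84 to -1.98 at 4 weeks, each with a called interaction. Il6 was called higher at 2 weeks under array weights (0.399, adjusted p = 0.0265) and without replicate 2 of the GFP- cells (0.436, adjusted p = 0.0415). Vsig4 and Cd209f were not above background in either fraction at 2 weeks. The difference of Cdh5 was -1.67 at 2 weeks and -2.91 at 4 weeks (interaction 1.24 ± 0.17), as GFP- cells reached 10.41 ± 0.27.

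**Figure D4:**
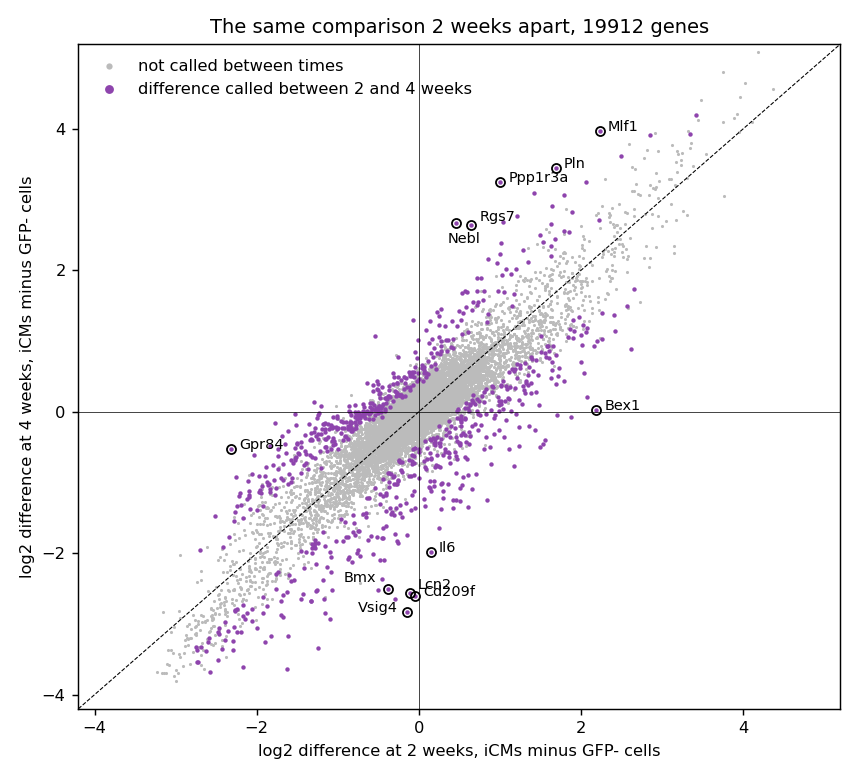
Log2 difference of iCMs minus GFP- cells at 4 weeks against that at 2 weeks for 19912 genes, with the dashed line marking equal differences and purple points the 785 genes whose difference was called between the times. Pln, Nebl and Ppp1r3a lie above the line, Bex1 far below it, and Vsig4, Lcn2 and Cd209f near 0 at 2 weeks.

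Cardiomyocytes and fibroblasts give a direction for each gene in other arrays, which share only the error estimate of the fit, and 41% of genes were called between them. Of the 809 genes at least 2-fold higher in iCMs than in GFP- cells, 256 were at least 2-fold higher in cardiomyocytes than in fibroblasts (31.6% of the first list and 25.3% of the second, beside 5.08% of all genes that were at least 2-fold higher in cardiomyocytes). Of the 989 lower genes, 575 were at least 2-fold lower in cardiomyocytes (58.1% and 43.0%, beside 6.71% of all genes). Of the 256 shared higher genes, 133 were called below cardiomyocytes in iCMs, 49 above and 74 were not called (42.1% of all genes were called between iCMs and cardiomyocytes, 22.7% higher in iCMs). Of the 575 shared lower genes, 414 (72.0%) were called above cardiomyocytes in iCMs. Comparing iCMs with cardiomyocytes in the shared genes reuses the arrays of both groups that chose them. The choice can favour such calls, so these counts are a description only. Genes against this direction numbered 86 (higher in iCMs, lower in cardiomyocytes) and 22 (lower in iCMs, higher in cardiomyocytes). The 86 are 10.6% of the 809, above the 6.71% of all genes that were at least 2-fold lower in cardiomyocytes. The 22 are 2.22% of the 989, below the 5.08% that were at least 2-fold higher.

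**Figure D5:**
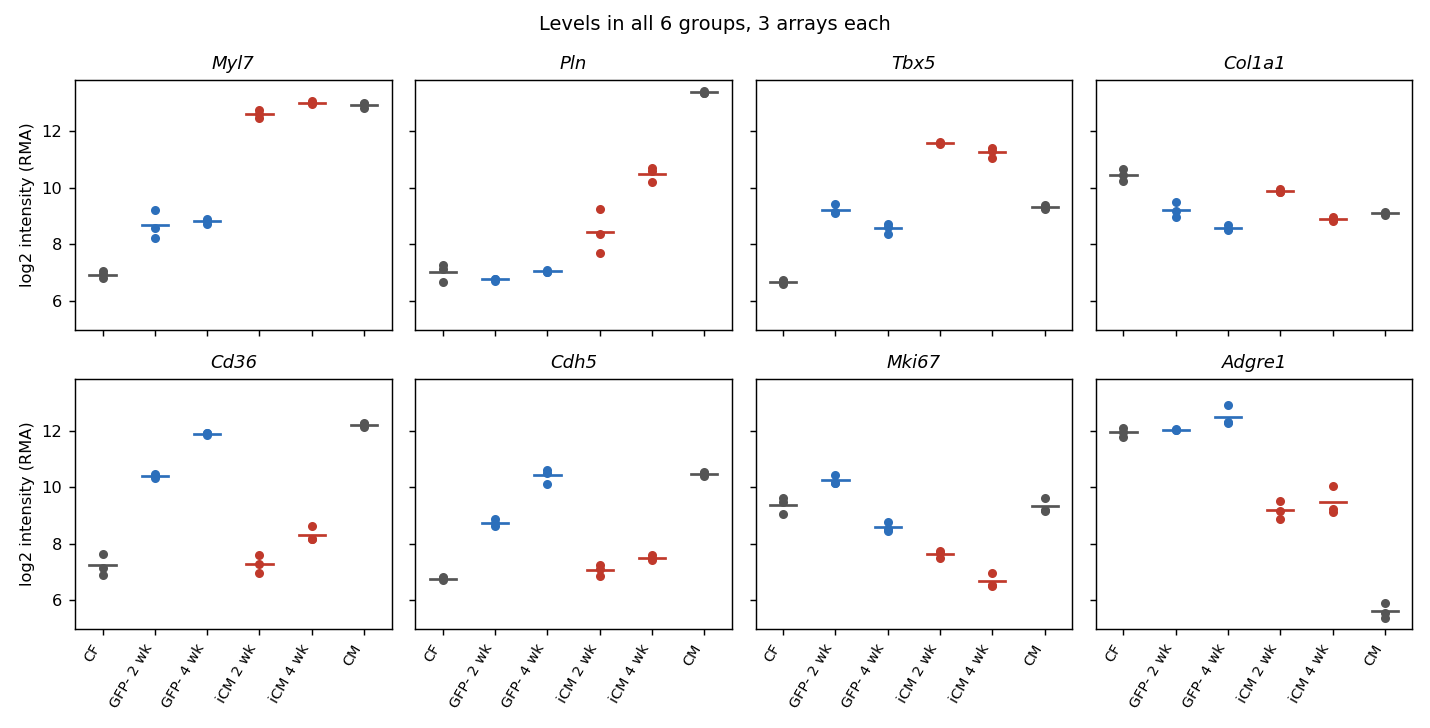
Log2 intensity of 8 genes in the 3 arrays of each of the 6 groups, with a bar at each mean (GFP- cells blue, iCMs red, CF and CM grey). Myl7 in iCMs lies near CM, Pln at 2 weeks lies 4.94 below CM, Tbx5 in iCMs exceeds CM, and Cd36 and Cdh5 in GFP- cells lie between CF and CM or near CM, while 2-week iCMs lie near CF.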

How the data were processed

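RNA of sorted cells was measured on mouse gene arrays. The deposited values of 28682 probe sets are log2 intensities, made by the authors with RMA, per the submitters' processing notes. Their medians per array lay close together, which alone cannot show that all arrays were normalized together. Of the probe sets, 21755 name 1 gene, 1592 several and 5335 none, by the platform annotation. The first kind was used, and for 997 genes with several probe sets the one with the highest mean was kept, giving 19912 genes. No column was left unused and no values were missing. Differences were fitted with limma 3.58.1 in R 4.3.3 (lmFit and eBayes) with the 6 groups as the only term over all 18 arrays (12 residual degrees of freedom), with Benjamini-Hochberg adjustment over all genes, and the fit was tested on simulated data. The number of arrays limits the precision.

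The members and the 38 gene lists (730 of 776 genes measured) were chosen with earlier results of these data known. Genes named are the 20 largest rises and 20 largest falls with no overlap between arrays and a higher mean above background, leaving out predicted or unnamed genes; up to 6 genes per list with the largest differences; fixed anchor genes; and the 6 largest interactions in each direction. Other genes are said to be chosen after their values were seen. Alternatives covered normalization, array weights, the prior, the arrays fitted, low signal, the choice of probe set, the replicate number as a block and leaving out each array. Promoters are those of RefSeq, GRCm38.p6.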

Additional observations from a re-analysis of the deposited data

Results flagged for a closer look

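For 50 of the 248 named genes the difference between iCMs and GFP- cells was not the same at 2 and at 4 weeks, by the interaction term of the limma fit (adjusted p under 0.05). Since 12 of the 248 were named for the size of their interaction and others for large differences, this count is a description and is not to be set against all genes. The values in brackets are the 2-week difference minus the 4-week difference on the log2 scale. In 26 genes it was negative. It was furthest below 0 in Ppp1r3a (-2.25), Nebl (-2.21), Rgs7 (-1.99), Gpr84 (-1.79), Pln (-1.77), Mlf1 (-1.74), Myl1 (-1.23), Myom1 (-1.12) and Tnnt3 (-1.07). Next came Ndc80 (-1.04), Nuf2 (-1.04), Pole (-0.90), Kdr (-0.87), Esrrg (-0.82), Pgam2 (-0.79), Lsp1 (-0.75), Cdkn2d (-0.64) and Mcm3 (-0.63). Smaller negative values were those of Vwf (-0.62), Cd74 (-0.60), Myl2 (-0.58), Dsp (-0.58), Acta1 (-0.53), Myh7 (-0.52), Acaa2 (-0.50) and Mpped2 (-0.49). In 24 genes it was positive, with the highest values in Vsig4 (2.68), Cd209f (2.56), Lcn2 (2.45), Bex1 (2.16), Bmx (2.13), Il6 (2.13), Lum (2.09) and Pecam1 (1.46). Intermediate values were those of Dclk1 (1.38), Lpl (1.33), Flt1 (1.24), Cdh5 (1.24), Tjp1 (1.07), Emcn (1.04), Tbx20 (1.04) and Col5a2 (0.98). The remaining positive values were those of Pmp22 (0.95), Ccl3 (0.93), Peg3 (0.89), Ccl6 (0.84), Egr2 (0.79), Fabp4 (0.77), Sgce (0.74) and Mmp23 (0.66). Rgs7, Vsig4 and Cd209f were not above background in either fraction at 2 weeks.

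Probe sets outside the gene comparison also carried differences. Of the 5335 probe sets that name no gene, 270 were higher in iCMs and 297 lower (limma, adjusted p under 0.05). Of the 1592 that name several genes, 163 were higher and 159 lower. In the gene comparison 3218 of 19912 genes were higher (16.2%) and 3656 lower (18.4%). Both kinds of probe set were thus called less often than the genes, in a fit of their own.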

How the results depend on the processing

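The counts of genes called higher and lower, 3218 and 3656, kept within 1.5 times under each alternative tried: 2537 to 4286 higher and 2921 to 5400 lower, with the lowest at an adjusted p under 0.01 and the highest under array weights. Counts of at least 2-fold differences ran from 780 to 905 and from 938 to 1066. Without each array in turn 2826 to 3209 genes were higher and 3224 to 3511 lower. Deviations of same-numbered arrays from their group means correlated at r = 0.27, 0.38 and -0.30. With 3 arrays per group these values cannot settle whether the numbers pair the arrays. The replicate block gave 3274 higher and 3682 lower. A covariate for array spread (3738 and 4140) and the block with only the 6 arrays (2958 and 3331) were added after seeing the data. The direction turned for 1 result: another probe set of Trdn gave -0.0903. Calls of named genes lost under an alternative include Cox6a2 (adjusted p = 0.110 without replicate 1 of the GFP- cells) and Ndufa8 (0.0940 without replicate 3 of the iCMs). The share of calls that were higher ran from 44.3% to 51.4% and was 46.8% as reported. Signals near background limit what can be said of genes with low means.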

Other observations

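Of the 809 genes at least 2-fold higher in 2-week iCMs than in GFP- cells, 251 (31.0%) were also at least 2-fold above both cardiomyocytes and fibroblasts. Among those named after their values were seen, Jam2, a junctional adhesion molecule, had a mean of 12.52 in iCMs and 9.20 in GFP- cells, with 8.61 in cardiomyocytes and 8.95 in fibroblasts. Scd1, which makes monounsaturated fatty acids, had means of 11.47, 8.21, 6.55 and 8.36 in the same order, and Anxa8, an annexin, 11.74, 8.58, 6.38 and 6.66. Enpep, a membrane aminopeptidase that cleaves angiotensin, read 10.13, 11.44 and 10.90 in iCMs and 6.57, 6.91 and 6.44 in GFP- cells (18.2-fold), with 8.87 in cardiomyocytes and 6.09 in fibroblasts. These comparisons reuse the iCM arrays by which the 809 genes were chosen as high. That choice favours genes above the other groups, and the share over all genes was not counted. The 31.0% is therefore a description only.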
